A study of Mus musculus with 13 samples.

Results

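Transcripts of 34 genes that mark B lymphocytes and plasma cells were followed in 13 RNA-seq libraries of sorted mouse natural killer (NK) cells. The genes were a given list and were found by Ensembl identifier through GENCODE M21. All 34 were among the 54532 identifiers in each count table. B-cell genes made up 27 of them: 5 transcription factors, 8 components of antigen receptor signalling, 10 surface receptors and 4 immunoglobulin constant genes used by naive B cells. The other 7 were genes of antibody-secreting plasma cells.

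Natural killer cells are innate lymphocytes that carry no rearranged antigen receptor. B cells are committed by a small set of transcription factors, assemble an antigen receptor from rearranged immunoglobulin chains, and signal through the partner chains Cd79a and Cd79b. Plasma cells arise from B cells, lose many B-cell surface genes and devote most of their transcription to switched immunoglobulin, with IgA joined by the J chain for transport across mucosal surfaces.

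Liver-resident NK cells (LrNK), sorted from liver lymphocytes, and conventional NK cells (cNK), sorted from splenocytes, came from C57BL/6J mice aged 8 to 10 weeks. Each cell type was labelled CD8KO or wild type (WT), where CD8KO stands for mice without CD8. There were 3 LrNK CD8KO, 4 LrNK WT, 3 cNK CD8KO and 3 cNK WT libraries. Cell type and tissue cannot be told apart in this design, and the labels give neither the targeted allele nor how many mice made up a library.

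Library totals were 30578631 to 47655853 counts in LrNK and 48600875 to 72716020 in cNK. LrNK CD8KO libraries 2 and 3 agreed almost to counting noise (chi-square per degree of freedom 2.67), as did LrNK WT libraries 2 and 4 (3.04), against 196 to 283 for the other LrNK pairs and 8.92 to 18.1 for the cNK pairs. Each of these pairs was summed and counted as 1 sample, which left n = 2 LrNK CD8KO, 3 LrNK WT, 3 cNK CD8KO and 3 cNK WT samples. LrNK CD8KO 1, LrNK WT 1 and LrNK WT 3 had 13917 to 15797 detected genes, against 19896 to 22921 in every other library. Cd8a was not lower but higher in libraries labelled CD8KO, at 41.6 to 45.1 CPM (counts scaled to the same total in every library) in LrNK CD8KO against 18.5 to 22.4 CPM in LrNK WT, and at 85.9 to 109 CPM in cNK CD8KO against 0.561 to 0.578 CPM in cNK WT. The sources used here do not give which part of the gene was deleted, so these counts cannot decide the genotype. Libraries are called by their labels, and every direction by genotype rests on them. The NK receptor gene Ncr1 was present in every library, at 418 to 852 CPM in LrNK and 1174 to 1324 CPM in cNK. Itga1, a marker of LrNK, was 136 to 369 CPM in LrNK and 10.0 to 19.3 CPM in cNK, whereas Itga2, a marker of cNK, was 16.5 to 36.5 CPM in LrNK and 379 to 406 CPM in cNK.

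B-cell genes and plasma-cell genes followed different libraries in part. Most B-cell genes were highest in the agreeing LrNK CD8KO libraries 2 and 3, while the plasma-cell genes Igha and Jchain were high in all 3 LrNK CD8KO libraries and in LrNK WT 3. The split was not complete. Of the 7 plasma-cell genes, 4 were highest in the pair, Sdc1 and Tnfrsf17 among them, and 3 in LrNK CD8KO 1. The B-cell genes Igkc, Bcl11a, Spib, Siglecg and Ly6d were above LrNK WT in LrNK CD8KO 1 too. So were Ebf1, Fcrla, Ms4a1, Cxcr5, Cr2, Cd22, Bank1 and Iglc2. Of the 34 genes, 26 had their highest level of the 11 samples in the LrNK CD8KO pair, against 12.1 percent of the 30244 genes with a count. In 14 of the 34 genes that pair was at least 4 times the next sample, against 3.73 percent of all genes. Neither LrNK CD8KO 2 nor LrNK CD8KO 3 had a gene of the list at 0 counts, whereas LrNK CD8KO 1 had 7, LrNK WT 1 had 14 and LrNK WT 3 had 17 at 0.

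**Figure D1:**
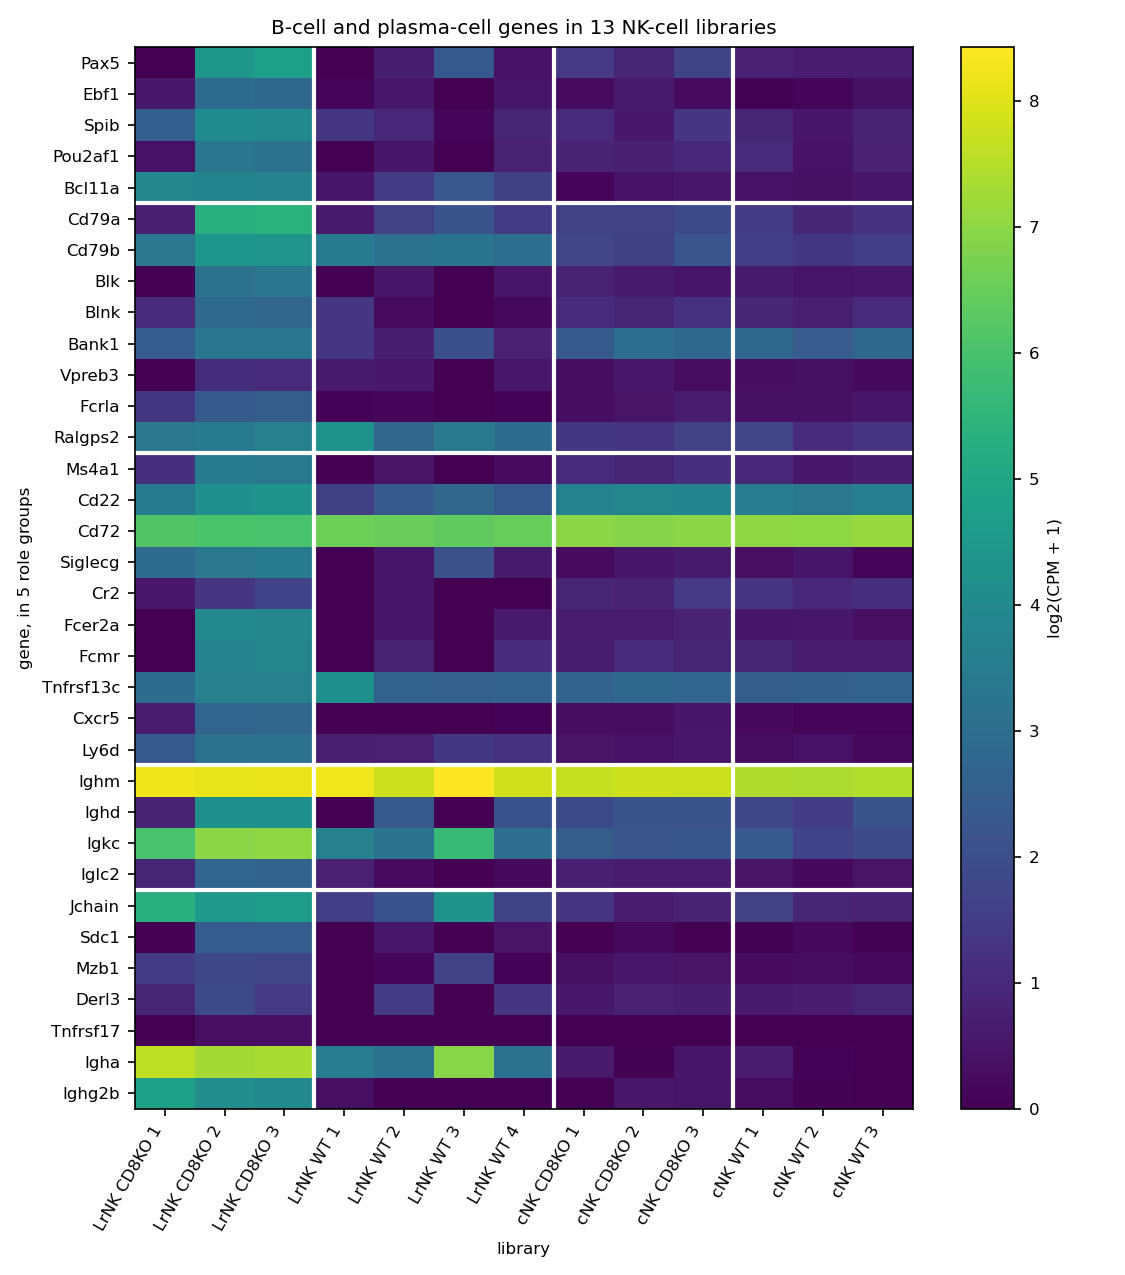
Levels of the 34 genes (rows, grouped by role with white lines) in the 13 libraries (columns, white lines between groups), as log2(CPM + 1) by colour. LrNK CD8KO 2 and 3 are brighter than the other libraries for most B-cell rows, such as Cd79a at 39.3 and 41.1 CPM, while Ighm and Cd72 are bright in every column.

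Promoters of B-cell genes often carry sites for the factors in the list and their partners, so 250 bases before the annotated start were searched for 3 short motifs. RefSeq promoters of build GRCm38.p6 were found for 22 of the 34 genes (27 promoters). On either strand, the octamer ATGCAAAT, the site of the POU factors that Pou2af1 assists, was in 2 of the 27 promoters (7.41 percent), against 1.60 percent of 32851 promoters. The early B-cell factor motif TCCCNNGGGA was in 1 (3.70 percent) against 0.779 percent of all promoters, and GAGGAAGT, a core bound by PU.1 and Spib, in 1 against 2.44 percent. None of these motifs overlapped another. A match describes the letters and does not show binding, and the lack of one says nothing of the factor.

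Promoters that held a motif are shown with that of Cd79a, which was high in the LrNK CD8KO pair and held none of the 3. They lie at chr7:24897247-24897496 (plus strand), chr10:75948050-75948299 (plus strand), chr19:40994222-40994471 (minus strand), chr7:30879029-30879278 (minus strand) and chr4:43454627-43454876 (minus strand), written 5′ to 3′ on the strand of the gene, with motif matches in capitals. The capitals in Vpreb3 and Blnk are the octamer read on the opposite strand, 45 to 38 and 130 to 123 bases before the start. Those in Cd22 are the early B-cell factor motif, 49 to 40 bases before the start. Those in Cd72 are the PU.1 core read on the opposite strand, 49 to 42 bases before the start.
Cd79a: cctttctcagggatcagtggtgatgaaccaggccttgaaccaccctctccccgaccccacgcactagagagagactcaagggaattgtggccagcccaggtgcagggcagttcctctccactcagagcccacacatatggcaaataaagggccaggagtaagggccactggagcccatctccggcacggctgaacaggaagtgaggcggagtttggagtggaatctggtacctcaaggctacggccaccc
Vpreb3: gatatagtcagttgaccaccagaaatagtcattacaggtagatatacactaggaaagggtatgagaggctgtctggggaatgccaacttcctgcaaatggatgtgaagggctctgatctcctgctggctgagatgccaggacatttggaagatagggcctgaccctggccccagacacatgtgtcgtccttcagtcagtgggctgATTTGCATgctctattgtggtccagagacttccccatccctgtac
Blnk: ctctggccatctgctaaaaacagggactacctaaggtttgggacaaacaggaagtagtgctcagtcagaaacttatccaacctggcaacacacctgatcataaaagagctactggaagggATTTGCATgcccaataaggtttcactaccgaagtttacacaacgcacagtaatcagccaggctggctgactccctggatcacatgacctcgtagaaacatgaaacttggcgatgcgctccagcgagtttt
Cd22: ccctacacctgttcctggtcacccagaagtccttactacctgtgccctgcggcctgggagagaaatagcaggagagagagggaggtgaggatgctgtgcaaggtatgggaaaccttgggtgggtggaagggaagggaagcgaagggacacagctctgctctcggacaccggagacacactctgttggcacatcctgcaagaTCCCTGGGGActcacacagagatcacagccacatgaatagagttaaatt
Cd72: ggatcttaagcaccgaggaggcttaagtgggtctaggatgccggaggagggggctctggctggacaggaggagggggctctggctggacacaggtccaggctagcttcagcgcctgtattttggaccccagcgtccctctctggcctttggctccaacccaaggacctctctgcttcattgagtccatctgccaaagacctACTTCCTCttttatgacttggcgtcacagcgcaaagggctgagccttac

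The transcription factors that commit and maintain B cells were found mainly in the LrNK CD8KO pair. Pax5, which holds B cells to their lineage, had 0, 20.8 and 25.9 CPM in LrNK CD8KO 1, 2 and 3, against 0, 0.651, 4.02 and 0.327 CPM in LrNK WT 1 to 4. In cNK it had 1.63, 0.821 and 2.31 CPM in CD8KO, against 0.699, 0.605 and 0.561 CPM in WT. Pax5 was thus high in the agreeing pair alone, at 5.76 times the next sample, and LrNK CD8KO overlapped LrNK WT because CD8KO 1 had no Pax5 count.

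Pou2af1 had the same shape, and Ebf1 was close to it. Ebf1, which specifies the B lineage before Pax5, had 6.35 CPM in the pair, 12.2 times the next sample. In LrNK CD8KO 1 it had 0.501 CPM, just above LrNK WT at 0 to 0.465 CPM. Pou2af1, a co-activator at octamer sites, had 8.41 CPM in the pair, 8.49 times the next sample.

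Bcl11a and Spib, which plasmacytoid dendritic cells also use, were not limited to the pair. Bcl11a, needed for early B-cell development, had 14.0, 13.03 and 12.6 CPM in LrNK CD8KO, against 0.423, 1.84, 3.92 and 1.99 CPM in LrNK WT. In cNK it had 0.103, 0.318 and 0.454 CPM in CD8KO, against 0.335, 0.303 and 0.411 CPM in WT. All 3 LrNK CD8KO libraries lay above every LrNK WT library, and the cNK groups overlapped. Spib, an Ets factor that works with PU.1, had 4.76 CPM in LrNK CD8KO 1 and 15.6 CPM in the pair, and at most 1.53 CPM in any LrNK WT library.

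Chains of the antigen receptor complex split in the same way. Cd79a, the signalling chain that pairs with Cd79b, had 0.668, 39.3 and 41.1 CPM in LrNK CD8KO, against 0.517, 2.19, 3.48 and 1.70 CPM in LrNK WT. In cNK it had 2.12, 2.09 and 2.69 CPM in CD8KO, against 1.82, 0.894 and 1.35 CPM in WT. The pair was at 11.5 times the next sample, LrNK CD8KO 1 lay within the range of LrNK WT, and the cNK CD8KO samples all lay above the cNK WT samples.

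Cd79b, its partner, was above its cNK level in all LrNK libraries. It had 9.11, 20.5 and 20.3 CPM in LrNK CD8KO, against 9.80, 7.96, 8.71 and 7.29 CPM in LrNK WT, and 2.39, 2.01 and 3.62 CPM in cNK CD8KO, against 1.89, 1.58 and 1.94 CPM in cNK WT. Every LrNK library lay above every cNK library, and the pair was 2.08 times the next sample. Per kilobase of exon, Cd79a and Cd79b were at 26.99 and 14.3 CPM in LrNK CD8KO 2, against 1.501 and 5.56 CPM in LrNK WT 2, so the order of the partners differed between these libraries.

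Of the other signalling genes, Blk and Blnk followed Cd79a most closely, Fcrla and Vpreb3 less so, and Bank1 and Ralgps2 did not. Blk, a Src-family kinase of B cells, had 8.51 CPM in the pair, 10.9 times the next sample, and 0 counts in LrNK CD8KO 1, LrNK WT 1 and LrNK WT 3. The adaptor Blnk had 6.21 CPM in the pair (4.13 times the next sample), and Fcrla, an Fc receptor-like protein kept inside B cells, had 4.39 CPM (2.77 times). Bank1, a scaffold of receptor signalling, had 4.43 to 8.92 CPM in LrNK CD8KO and 0.651 to 3.12 CPM in LrNK WT, beside 4.16 to 7.31 CPM in cNK CD8KO and 4.29 to 6.18 CPM in cNK WT. Vpreb3 did not exceed 1.15 CPM in any library.

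Ralgps2, an exchange factor for Ral GTPases, had its highest level in LrNK WT 1. It had 9.11, 10.4 and 11.8 CPM in LrNK CD8KO, against 18.5, 5.84, 9.35 and 6.70 CPM in LrNK WT. In cNK it had 1.60, 1.46 and 2.13 CPM in CD8KO, against 2.39, 1.05 and 1.38 CPM in WT. Genotypes overlapped within each cell type, and every LrNK library lay above every cNK library.

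Among the 10 surface receptors, Fcer2a, Fcmr, Cxcr5 and Ms4a1 had the pair farthest above the next sample, while Ly6d, Siglecg, Cd22 and Cr2 had it at 1.13 to 1.99 times and Tnfrsf13c and Cd72 below it. Fcer2a, the low-affinity IgE receptor CD23, had 14.4 CPM in the pair and at most 0.804 CPM in any other sample. Fcmr, the IgM Fc receptor, had 12.8 CPM, 12.3 times the next sample, and Cxcr5, which guides B cells into follicles, had 5.79 CPM, 10.4 times the next sample, with 3.30 percent of its exon bases overlapping Bcl9l on the opposite strand. Ms4a1, which encodes CD20, had 9.57 CPM in the pair, 7.81 times the next sample.

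Inhibitory receptors of the B-cell surface behaved in 3 ways. Cd22, a sialic acid-binding inhibitor, had 10.3, 17.8 and 19.4 CPM in LrNK CD8KO, against 2.02, 4.23, 5.84 and 3.99 CPM in LrNK WT, and 12.2, 13.6 and 13.1 CPM in cNK CD8KO, against 10.99, 9.06 and 11.3 CPM in cNK WT. Its CD8KO samples lay above its WT samples in both cell types without overlap, and LrNK WT was the lowest group. Siglecg, a related inhibitor, had 6.77, 9.04 and 9.89 CPM in LrNK CD8KO, against 0, 0.419, 3.30 and 0.523 CPM in LrNK WT, and 0.185, 0.436 and 0.524 CPM in cNK CD8KO, against 0.262, 0.399 and 0.112 CPM in cNK WT. LrNK CD8KO was the high group for Siglecg, in CD8KO 1 as in the pair.

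Cd72, a C-type lectin inhibitor, was plentiful everywhere and lowest where the other genes were highest. It had 69.6, 64.5 and 64.0 CPM in LrNK CD8KO, against 94.1, 89.0, 81.6 and 87.2 CPM in LrNK WT, and 124, 117 and 122 CPM in cNK CD8KO, against 129, 128 and 139 CPM in cNK WT. The 4 groups did not overlap, in the order LrNK CD8KO, LrNK WT, cNK CD8KO, cNK WT. Of its exon bases 41.6 percent overlap Tesk1 on the opposite strand, which had 47.3 to 91.6 CPM, and without a stated strand setting reads of the 2 genes cannot be told apart.

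Ly6d, a surface marker of B-lineage commitment, had 3.98, 7.87 and 8.02 CPM in LrNK CD8KO, against 0.658, 0.698, 1.59 and 1.37 CPM in LrNK WT. In cNK it had 0.370, 0.335 and 0.454 CPM in CD8KO, against 0.218, 0.344 and 0.149 CPM in WT. LrNK CD8KO was again above LrNK WT in all 3 libraries. Tnfrsf13c, the receptor for the survival factor BAFF, had 6.63 to 11.8 CPM in LrNK CD8KO and 4.94 to 17.8 CPM in LrNK WT, and Cr2, a complement receptor, did not exceed 2.27 CPM.

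Among the immunoglobulin constant genes, Ighm did not follow the others. Ighm, the constant region of IgM, had 297, 277 and 285 CPM in LrNK CD8KO, against 301, 221, 343 and 225 CPM in LrNK WT, and 207, 220 and 212 CPM in cNK CD8KO, against 171, 165 and 175 CPM in cNK WT. It was plentiful in every library, the LrNK genotypes overlapped, and in cNK all CD8KO samples lay above all WT samples. Ighm counts were 444, 7.04 and 6.94 times those of Cd79a in LrNK CD8KO, against 581, 101, 98.4 and 132 times in LrNK WT and 78.8 to 184.5 times in cNK.

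Ighd, expressed with Ighm by mature naive B cells, went with the pair. It had 0.780, 17.6 and 17.5 CPM in LrNK CD8KO, against 0, 4.16, 0 and 3.40 CPM in LrNK WT, and 2.67, 3.60 and 3.42 CPM in cNK CD8KO, against 2.48, 1.79 and 3.57 CPM in cNK WT. The pair was 4.57 times the next sample, and the 3 libraries with few detected genes were the lowest.

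Igkc, the kappa light-chain constant gene, was highest in 4 LrNK libraries. It had 63.9, 124 and 129 CPM in LrNK CD8KO, against 11.8, 8.24, 51.7 and 7.10 CPM in LrNK WT, and 4.61, 3.65 and 3.72 CPM in cNK CD8KO, against 4.06, 2.21 and 2.86 CPM in cNK WT. The lowest LrNK CD8KO library was above the highest LrNK WT library, and LrNK WT 3 was several times the other LrNK WT libraries. Iglc2, a lambda constant gene, was 5.60 CPM in the pair and below 1 CPM in the other samples. Lambda made up 1.29 percent of light-chain constant counts in LrNK CD8KO 1 (95 percent Wilson interval 0.906 to 1.84), 6.76 percent in CD8KO 2 (6.17 to 7.41) and 6.58 percent in CD8KO 3 (5.97 to 7.24). CD8KO 1 thus had less lambda than the pair by intervals that take each count as 1 molecule. A count was not always 1 molecule, and CD8KO 1 had few detected genes. No lambda count was found beside 2020 kappa counts in LrNK WT 3, an interval up to 0.190 percent.

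Plasma-cell immunoglobulin was high in LrNK CD8KO 1, where Pax5 and Cd79a were both under 1 CPM. Igha, the constant region of IgA, had 196, 157 and 163 CPM in LrNK CD8KO, against 10.6, 8.12, 120 and 7.78 CPM in LrNK WT, and 0.535, 0.0335 and 0.437 CPM in cNK CD8KO, against 0.583, 0.0550 and 0 CPM in cNK WT. All LrNK CD8KO libraries exceeded all LrNK WT libraries, with LrNK WT 3 closest to them, and every LrNK library exceeded every cNK library. Jchain, which links IgA and IgM into polymers, had 38.7, 21.9 and 23.9 CPM in LrNK CD8KO, against 1.93, 3.40, 19.0 and 2.29 CPM in LrNK WT, and 1.42, 0.587 and 0.734 CPM in cNK CD8KO, against 2.16, 0.839 and 0.747 CPM in cNK WT. The same 4 libraries were high for Jchain as for Igha.

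Ighg2b separated the genotypes more sharply. It had 26.1, 16.5 and 15.2 CPM in LrNK CD8KO, against 0.259, 0, 0 and 0 CPM in LrNK WT, and at most 0.469 CPM in cNK. LrNK WT 3, which was rich in Igha, had no Ighg2b count. Ighg2b shares sequence with the other IgG constant genes, and reads could be split among them.

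The other plasma-cell genes of the list were low. Sdc1, the plasma-cell surface proteoglycan CD138, had 4.51 CPM in the pair and at most 0.421 CPM in any other sample, with 0 counts in LrNK CD8KO 1 and LrNK WT 3. Mzb1, a chaperone of immunoglobulin assembly, had 1.84 CPM in LrNK CD8KO 1, 2.47 CPM in the pair and 2.1 CPM in LrNK WT 3. Derl3, of the degradation machinery of the endoplasmic reticulum, did not exceed 2.71 CPM. Tnfrsf17, the plasma-cell survival receptor BCMA, had 13 and 11 counts in LrNK CD8KO 2 and 3 and 0 in the other 11 libraries.

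**Figure D2:**
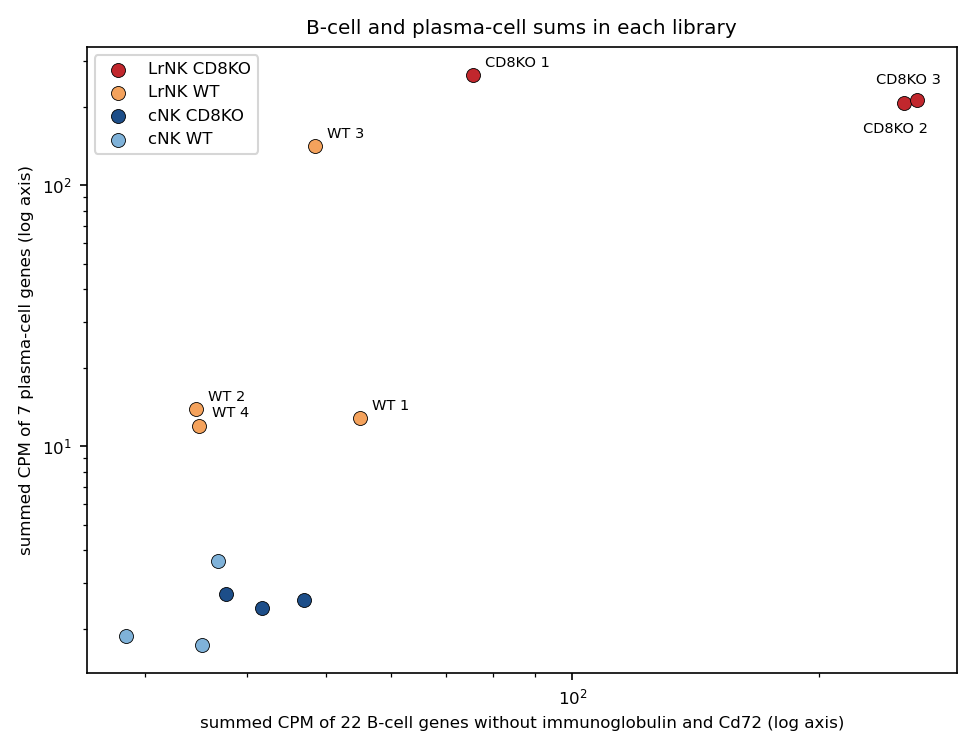
Summed CPM of 22 B-cell genes, with the immunoglobulin genes and Cd72 left out, on the horizontal log axis and summed CPM of the 7 plasma-cell genes on the vertical log axis, 1 point per library. LrNK CD8KO 2 and 3 are high on both axes, and LrNK CD8KO 1 and LrNK WT 3 are high on the plasma-cell axis. On the B-cell axis LrNK CD8KO 1, at 75.5 CPM, lies above every library outside the pair and below the pair. LrNK WT 3, at 48.4 CPM, lies near the rest on that axis, and the cNK libraries lie at the bottom left.

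Summed levels gave the same partial division, with Igha the largest part of the plasma-cell sum in LrNK. The 22 B-cell genes without immunoglobulin and Cd72 summed to 75.5, 255 and 264 CPM in LrNK CD8KO, against 55.0, 34.6, 48.4 and 35.0 CPM in LrNK WT, and to 37.7 to 47.0 CPM in cNK CD8KO, against 28.5 to 36.8 CPM in cNK WT. Among the libraries with many detected genes, the LrNK CD8KO pair stood far above the LrNK WT pair (1 sample each), and among those with few, LrNK CD8KO 1 was above LrNK WT 1 and 3. With all 27 B-cell genes the sums averaged 631 ± 175 CPM in LrNK CD8KO (SD, n = 2) and 448 ± 84.5 CPM in LrNK WT (n = 3), and 384 ± 6.997 CPM in cNK CD8KO and 342 ± 15.7 CPM in cNK WT (n = 3 each). The 7 plasma-cell genes summed to 263, 206 and 211 CPM in LrNK CD8KO, against 12.8, 13.9, 142 and 12 CPM in LrNK WT, and to 2.40 to 2.72 CPM in cNK CD8KO, against 1.74 to 3.66 CPM in cNK WT. LrNK CD8KO averaged 236 ± 38.9 CPM (SD, n = 2) and LrNK WT 55.8 ± 74.2 CPM (n = 3) for the plasma-cell sum, and without LrNK WT 3 the LrNK WT average was 12.96 CPM. In bulk samples such as these, fewer cells of a type and less RNA per cell cannot be told apart.

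The heavy-chain constant genes, taken as shares of their own total, set the same 4 libraries apart. Igha held 37.7, 33.2 and 33.5 percent of heavy-chain constant counts in LrNK CD8KO, against 3.40, 3.47, 26.0 and 3.29 percent in LrNK WT and at most 0.333 percent in cNK. Ighm held 57.1 to 58.6 percent in LrNK CD8KO, against 74.0 percent in LrNK WT 3 and 94.5 to 96.1 percent in the other LrNK WT libraries, and 98.0 to 98.8 percent in cNK. The totals behind these shares were 7228 to 22606 counts a library.

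Variable (V) genes are the rearranged segments that differ between B-cell clones, and they were examined after their values had been seen. A single heavy-chain V gene, Ighv1-81, held 59.6, 49.3 and 49.7 percent of the heavy-chain V counts in LrNK CD8KO 1, 2 and 3 and 51.3 percent in LrNK WT 3. Its level was 33.8, 30.1 and 32.1 CPM in LrNK CD8KO, against 0.118, 0.0233, 8.504 and 0 CPM in LrNK WT and 0.105 to 0.262 CPM in cNK. Igkv1-117 led the kappa V genes in the same 4 libraries, at 18.3, 20.2 and 16.4 CPM in LrNK CD8KO, against 0, 0, 9.58 and 0 CPM in LrNK WT and 0.117 to 0.316 CPM in cNK. LrNK WT 3 therefore shared the leading heavy and light V genes of the LrNK CD8KO libraries, and no other library did. Close V-gene copies can share reads, so each value may include reads of a related gene.

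The number of V genes with at least 10 counts differed between these libraries. This number rises with the V counts of a library, so it does not give how many V genes were in use. Heavy-chain V counts were 2039, 2908 and 2692 in LrNK CD8KO, against 548, 365, 647 and 257 in LrNK WT and 182 to 326 in cNK. LrNK CD8KO 1, LrNK WT 1 and LrNK WT 3 also had few detected genes. At least 10 counts were found for 14, 33 and 31 heavy-chain V genes in LrNK CD8KO 1, 2 and 3, against 6, 10, 4 and 7 in LrNK WT and 6 to 9 in cNK. For kappa V genes the numbers were 18, 48 and 45 in LrNK CD8KO, against 4, 5, 3 and 3 in LrNK WT and 5 to 9 in cNK. All 3 kappa V genes of LrNK WT 3 were among the 18 of LrNK CD8KO 1, where they made up 16.7 percent of the list. Of the 14 heavy-chain V genes of LrNK CD8KO 1, 9 were among the 33 of LrNK CD8KO 2 (64.3 percent of the first list and 27.3 percent of the second).

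**Figure D3:**
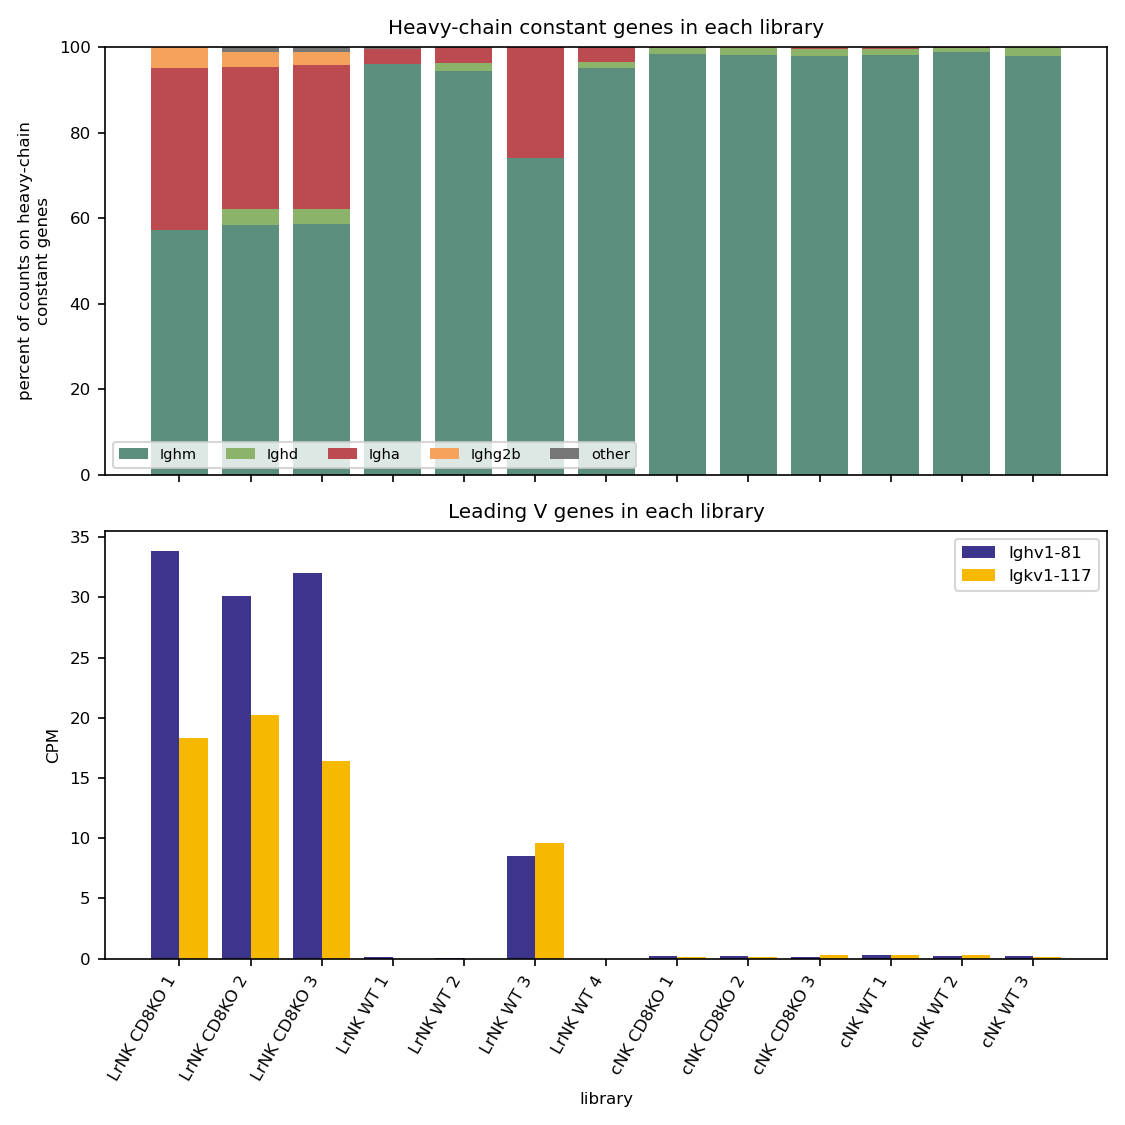
Top, shares of counts on heavy-chain constant genes (percent, stacked bars) in each of the 13 libraries, and bottom, CPM of Ighv1-81 and Igkv1-117 in the same libraries. Igha takes 26.0 to 37.7 percent, and both V genes stand out, in LrNK CD8KO 1, 2 and 3 and LrNK WT 3.

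In liver-resident cells, the LrNK CD8KO to LrNK WT comparison asked whether these transcripts differed with the CD8KO label. None of the 33 genes tested was called by edgeR's quasi-likelihood test at an adjusted p under 0.05, and the background of called genes was 0.0 percent (0 of 16504). At an unadjusted p under 0.05 there were 639 genes, 8 of them from the list, and DESeq2 called 55 genes and none of the list. Fitted log2 changes lay above 0 for 31 of the 33 genes, with a median of 2.81, beside 0.02 over all genes tested, and without the LrNK CD8KO pair the median was 1.28. For 16 genes every LrNK CD8KO sample lay above every LrNK WT sample, as for 9.84 percent of all genes tested. The 16 held 3 of 5 transcription factors, 2 of 8 receptor signalling genes and 6 of 10 surface receptors. They also held 2 of 4 naive immunoglobulin genes and 3 of 7 plasma-cell genes. For Cd72 alone every LrNK CD8KO sample lay below, as for 8.47 percent. The log2 change of Igha was 1.98 ± 1.11 (SE, edgeR adjusted p = 1.0), that of Jchain 1.97 ± 0.92, that of Igkc 2.07 ± 0.79 and that of Cd79a 3.43 ± 1.45. Without LrNK WT 3 the log2 changes of Igha, Jchain and Igkc were 4.27, 3.63 and 3.33, and none was called by edgeR. Without the LrNK CD8KO pair, the log2 change of Cd79a was -1.64 and that of Pax5 was -9.16, a value that depends on the prior count since CD8KO 1 had no Pax5 count. With no filter on low counts, 5 of the listed genes were called, among them Igha at 1.98, Jchain at 1.97, Igkc at 2.07 and Cd79a at 3.43, beside 259 of 25596 genes. The spread between samples was wide, with a biological coefficient of variation of 98.2 percent in LrNK and 9.60 percent in cNK.

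In conventional cells from the spleen, 1 gene of the list differed by the same label. Ighm rose, with a log2 change of 0.31 ± 0.05 (SE) and an edgeR adjusted p of 0.000857, and it was higher in 3 of 3 cNK CD8KO samples than in any cNK WT sample. It was the only one called of 32 tested, where 1.52 percent of the 16619 genes tested were called, 0.65 percent higher and 0.872 percent lower. Groups did not overlap for 10 genes that were higher in CD8KO and 1 that was lower, against 9.68 and 8.35 percent of all genes. Pax5 had a log2 change of 1.33 ± 0.34 (adjusted p = 0.0595 in edgeR), and was called by DESeq2 (0.0186), with no filter on low counts (0.00271) and without cNK CD8KO 2 (0.0164). The log2 changes were for Cd79a 0.76 ± 0.26 (0.177) and Cd72 -0.13 ± 0.05 (0.260). Igha, Jchain and Igkc were not called, at 0.59 ± 1.35, -0.47 ± 0.42 and 0.38 ± 0.21. Ighm was not called in a model with 1 spread for all 4 groups, which called 1 of all genes. Other lists moved beside it: the T-cell genes Cd3g (0.66 ± 0.11, adjusted p = 0.00205) and Cd3d (0.57 ± 0.10, 0.00722) rose, as did the LrNK marker Itga1 (0.75 ± 0.10, 0.000178), and their part in the Ighm result was not tested.

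**Figure D4:**
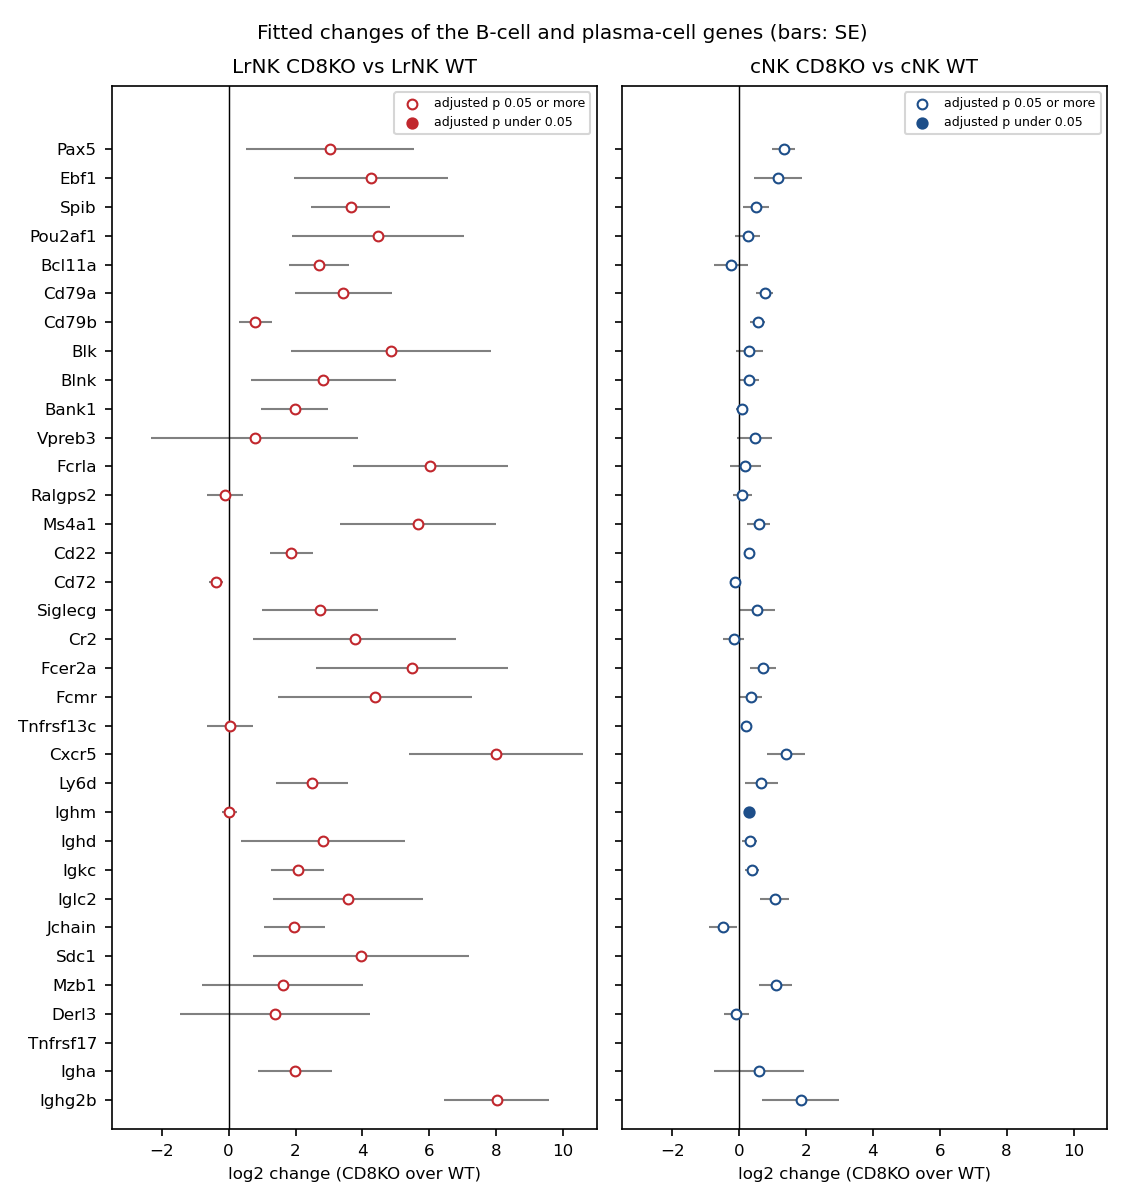
Fitted log2 changes of CD8KO over WT (points) with their standard errors (bars) for the 34 genes, LrNK on the left and cNK on the right; filled points are called at an adjusted p under 0.05. Bars are wide in LrNK, where no gene is filled, and narrow in cNK, where Ighm at 0.31 is the 1 filled point.

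The difference of the CD8KO effect between LrNK and cNK was tested in a model of all 4 groups. None of 33 genes was called by edgeR, where 0.0467 percent of 19287 genes were (0.0104 percent higher and 0.0363 percent lower), and DESeq2 called 2 of them, Fcrla and Cxcr5, beside 325 of all genes. At an unadjusted p under 0.05 edgeR had 1638 genes, 8 of them from the list. The difference was -0.26 ± 0.19 for Ighm and 1.45 ± 1.91 for Igha (log2, SE). The genotype effects in the cell types were therefore not shown to differ.

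Comparing WT cells, LrNK against cNK gave calls in both directions. Of 29 genes tested, 5 rose in LrNK WT and 1 fell, where 20.4 percent of 16456 genes were called, 10.7 percent higher and 9.64 percent lower. Cd79b rose by 2.35 ± 0.35 (log2, SE, edgeR adjusted p = 0.00654), Ralgps2 by 2.89 ± 0.55 (0.0171), Ighm by 0.83 ± 0.14 (0.0114), Igkc by 3.02 ± 0.76 (0.0376) and Igha by 7.76 ± 1.75 (0.0280). Cd72 had a log2 change of -0.50 ± 0.11 (0.0245). All 6 had groups that did not overlap. Over the 34 genes, tested or not, this held for 7 that were higher and 7 that were lower, against 17.0 and 31.7 percent of all genes tested. Cxcr5, among the lower, was not tested. Leaving out cNK WT 1, 2 or 3 left 2, 0 or 1 of the genes called, beside 1059 to 1142 of all genes, and leaving out the LrNK WT pair gave 15, beside 6662 of 16630 genes, so the count moved with that over all genes. Without LrNK WT 3, Igha had a log2 change of 5.496 and was not called (adjusted p = 0.0505). Cd22 and Bank1 were lower in LrNK WT in every sample and were not called, at -1.30 ± 0.44 (0.0880) and -1.57 ± 0.65 (0.150).

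In cells labelled CD8KO, LrNK against cNK gave the most calls. Of 32 genes tested, 13 rose and 1 fell in LrNK CD8KO, where 26.3 percent of 17795 genes were called, 15 percent higher and 11.3 percent lower. Groups did not overlap for 18 genes that were higher, against 23.3 percent of all genes, and 1 that was lower, against 38.4 percent. By role, 4 of 5 tested plasma-cell genes rose, 2 of 5 transcription factors, 3 of 8 receptor signalling genes, 2 of 10 surface receptors and 2 of 4 naive immunoglobulin genes. The plasma-cell genes were Igha (9.21 ± 0.68, edgeR adjusted p = 0.00115), Jchain (5.19 ± 0.46, 0.00178), Ighg2b (6.25 ± 1.00, 0.0104) and Mzb1 (2.62 ± 0.57, 0.0242). Igkc rose by 4.72 ± 0.36, Bcl11a by 5.62 ± 0.58, Siglecg by 4.53 ± 0.53, Ly6d by 4.08 ± 0.49 and Ralgps2 by 2.67 ± 0.30. Cd79b, Spib, Fcrla and Ighm were the others that rose, and Cd72 fell by 0.73 (SE 0.09). Pax5 and Cd79a were not called, at 3.05 ± 1.80 (0.278) and 3.33 ± 1.36 (0.136), and LrNK CD8KO 1 lay below the cNK CD8KO samples for both. Without LrNK CD8KO 1, a fit that takes the lone pair to vary like the cNK samples, 33 of the listed genes were called, beside 11011 of all 19586 genes. Without the pair, 13 were called higher and 8 lower in LrNK CD8KO 1, Pax5, Cd79a, Fcer2a and Ighd among the lower, beside 13086 of all 18743 genes called. Leaving out a cNK CD8KO sample gave 8 or 9, beside 1560 to 1730 of all genes. Each of these comparisons between cell types shares its samples with the comparisons by genotype.

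Markers of other cells were high in some of the same libraries, and their part in the values above was not tested. Of 15 neutrophil and monocyte markers, 13 to 15 had a count in LrNK CD8KO, 8 to 10 in LrNK WT and 10 to 13 in cNK, and Ly6g, which defines neutrophils, was at 0 in LrNK CD8KO 1 and all LrNK WT libraries. The 15 markers summed to 10092, 3146 and 3209 CPM in LrNK CD8KO, against 3139, 1162, 4902 and 1153 CPM in LrNK WT and 955 to 1115 CPM in cNK. The 10 dendritic cell markers, which include MHC class II genes that B cells also express, summed to 5715, 4492 and 4550 CPM in LrNK CD8KO, against 4562, 2092, 6719 and 2123 CPM in LrNK WT and 784 to 901 CPM in cNK. Of the 10 plasmacytoid dendritic cell markers, 7 to 10 had a count. The 10 summed to 670, 490 and 501 CPM in LrNK CD8KO, against 460, 298, 407 and 300 CPM in LrNK WT. In cNK the sum was 650 to 738 CPM, of which Irf8 alone had 443 to 544 CPM, against 154 to 397 CPM of Irf8 in LrNK. Within that list, Siglech, a defining gene, had 11.4, 2.92 and 2.70 CPM in LrNK CD8KO, against 1.13, 0.512, 7.04 and 0.458 CPM in LrNK WT. Pacsin1 had 12.7, 29.6 and 32.1 CPM in LrNK CD8KO, against 16.1, 19.1, 16.3 and 18.8 CPM in LrNK WT, and Ccr9 was at 0 in LrNK WT 3. In cNK, Siglech did not exceed 0.160 CPM, Ccr9 0.536 CPM and Pacsin1 1.55 CPM. LrNK CD8KO 1 and LrNK WT 3 had high Igha, with Cd79a at 0.668 and 3.48 CPM, against 40.2 CPM in the LrNK CD8KO pair. For Cd79a, LrNK WT 3 was the next sample after that pair. LrNK CD8KO 1 and LrNK WT 3 were the highest 2 for the neutrophil and monocyte sum, mostly Lyz2 in both, and for Siglech, but not for Pacsin1. The 13 T-cell markers summed to 922 to 1163 CPM in LrNK CD8KO, against 1561 to 1937 CPM in LrNK WT. In cNK they summed to 555 to 580 CPM in CD8KO, against 509 to 548 CPM in WT. Single T-cell markers went both ways between LrNK genotypes, with a median log2 change of 0.31 over the 12 tested. Log2 changes were below 0 for Cd3g (-1.65), Trbc2 (-0.71), Trbc1 (-0.69), Lat and Bcl11b. They were above 0 for Cd6 (1.955), Cd4 (0.98) and the others tested, and none was called. The 10 NK markers summed to 7656 to 9157 CPM in LrNK CD8KO, against 13370 to 15968 CPM in LrNK WT, and the 10 hepatocyte markers to 38.4 to 56.4 CPM in LrNK CD8KO, against 29.6 to 57.9 CPM in LrNK WT.

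**Figure D5:**
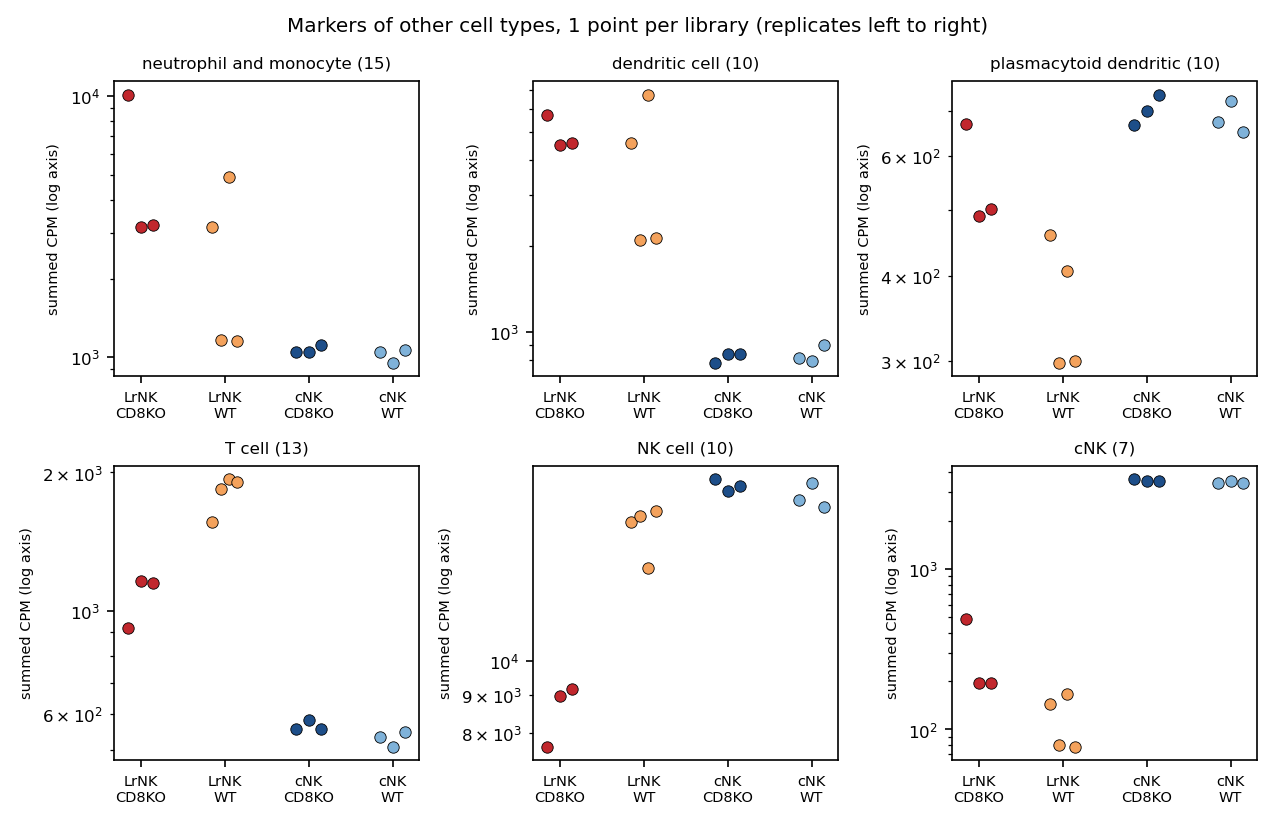
Summed CPM of 6 marker lists, 4 of other cells and those of NK cells and cNK (log axes, 1 point per library, replicates from left to right within a group). LrNK CD8KO 1 and LrNK WT 3 are the highest points for the neutrophil and monocyte sum, which is mostly Lyz2 in both. LrNK CD8KO lies below LrNK WT for NK markers.

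Other B-lineage genes outside the list were read beside them. In LrNK CD8KO against LrNK WT, where no gene was called by edgeR, the median log2 change was 1.01 over 16 further B-lineage genes, 0.32 over 14 genes of antigen receptor signalling that other cells share, 1.26 over 9 tested marginal zone and B1 genes, 0.35 over 6 germinal centre genes and 0.21 over 10 further plasma-cell genes. In cNK CD8KO against cNK WT, the medians were 0.01, 0.02, 0.14, -0.21 and -0.0024 over the tested genes of these lists. Between cell types, 9 of 16 tested B-lineage genes rose and 2 fell in LrNK CD8KO against cNK CD8KO. Over all genes tested there, 15 percent were called higher and 11.3 percent lower. The B-lineage genes that rose included the receptor Cd40 (8.995 ± 0.69, edgeR adjusted p = 0.00121) and the Toll-like receptor partner Cd180 (4.97 ± 0.45, 0.00187), which myeloid cells also express. In LrNK WT against cNK WT, 5 of 16 rose and 2 fell, where 10.7 percent of all genes tested were called higher and 9.64 percent lower. Prdm1, which drives plasma-cell differentiation and is also used by NK cells, fell in LrNK CD8KO against cNK CD8KO (-1.32 ± 0.20, 0.00898), whereas Xbp1, a factor of the secretory response, rose (1.33 ± 0.17, 0.00469). Of 9 early B-cell progenitor genes, 7 were under 1 CPM in every library, among them the recombination genes Rag1 (at most 0.126 CPM) and Dntt (at most 0.441 CPM). The other 2 were Cd93, which myeloid cells also express, and Sox4. Cd93 had 67.9 to 107 CPM in LrNK CD8KO, against 31.4 to 46.1 CPM in LrNK WT, and 1.28 to 3.50 CPM in cNK, and it rose in LrNK against cNK in cells labelled CD8KO (5.10 ± 0.39, edgeR adjusted p = 0.00121) and in WT (4.67 ± 0.24, 0.000193). Sox4 fell in LrNK CD8KO against cNK CD8KO (-2.34 ± 0.62, 0.0451).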

How the data were processed

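RNA-seq libraries of sorted NK cells were used as the gene counts the authors deposited, whole numbers per Ensembl gene and not normalized. HISAT2 2.1.0 and GRCm38 are named in the submitters' processing notes; which program counted reads, with which annotation and strand setting, no label says. Of 54532 identifiers, 54495 matched GENCODE M21 and 37 did not. CPM were computed here from each library's total. Even numbers made up 49.5 to 65.2 percent of counts from 1 to 20, so a count is not always 1 molecule, and intervals cover counting error only.

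The 34 genes and all gene lists were chosen with earlier results of these data known. Pairs of libraries of a group with a chi-square per degree of freedom under 4 over genes with at least 12 counts in the pair were summed. The labels give no separate mice, so p-values measure the spread between samples only, which may be technical. Fits used edgeR 4.0.16 (R 4.3.3; TMM scaling, filterByExpr with a minimum count of 10, total of 15, robust quasi-likelihood test) on 2 groups, or 4 for the interaction, over all genes, with Benjamini-Hochberg adjusted p under 0.05 as the call. Genes given library by library were the 2 of each role with the highest mean CPM, Ighd, Igha, Jchain and up to 4 more called in a comparison with groups that did not overlap. Other genes were singled out after their values were seen: Ighg2b, the V genes, Rag1, Dntt, Siglech, Pacsin1, Ccr9, Irf8, Lyz2, Ccr2, Mmp9 and the named T-cell markers between LrNK genotypes. The procedure was tested on simulated data. Alternatives were RLE scaling, totals only, DESeq2 1.42.0, voom with sample weights (limma 3.58.1), no low-count filter, a 4-group model, unsummed libraries, 1 library of each pair, a replicate block and leaving out each sample. Promoters came from RefSeq GRCm38.p6.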

Additional observations from a re-analysis of the deposited data

How the results depend on the processing

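Of 623 values of single genes under an alternative, 569 kept their direction and side of the threshold, 25 lost the call, 15 gained it and 14 changed sign. Counts of called genes of the list moved by over 1.5 times under these settings: in LrNK CD8KO against LrNK WT, 5 with no low-count filter and 2 with the replicate block, against 0; in cNK CD8KO against cNK WT, 2 with DESeq2, 2 with no filter, 2 with the block and 0 with the 4-group model, against 1; in LrNK WT against cNK WT, 10 with the 4-group model, against 6; in LrNK CD8KO against cNK CD8KO, 9 with the block, against 14; and for the interaction, 2 with DESeq2, against 0. Smaller moves included 9 with DESeq2 in WT by cell type, and 19, 18, 20 and 11 with DESeq2, voom, unsummed libraries and the 4-group model in CD8KO by cell type. Over all genes, the LrNK genotype count was 55 with DESeq2, 4 with voom, 259 with no filter, 120 with the 4-group model, 27 with unsummed libraries and 190 with the block; the cNK genotype count was 479, 567, 1 and 419 with DESeq2, no filter, the 4-group model and the block; the block gave 2041 and 2079 for the cell-type comparisons in WT and in CD8KO; and the interaction gave 325 with DESeq2, 14 with no filter and 70 with unsummed libraries. With the block, Igha (4.26) and Jchain (3.62) were called between LrNK genotypes, and Pax5 (1.23) between cNK genotypes; same-numbered samples had correlations of deviations of 0.299 and 0.491 in LrNK by genotype, where the 2 CD8KO samples mirror each other, 0.0144 to 0.0478 in cNK by genotype and -0.100 to 0.0546 by cell type, so the numbers were not taken as pairs. The causes were not tested.

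Leaving out 1 sample gave 0 to 0, 1 to 2, 0 to 15 and 8 to 33 called genes of the list, and 0 to 1, 81 to 292, 1059 to 6662 and 1560 to 13086 of all genes, in LrNK by genotype, cNK by genotype, WT by cell type and CD8KO by cell type, and 0 to 4 and 5 to 587 for the interaction. Signs changed for log2 changes in LrNK by genotype of Pax5 (-9.16 to 5.45), Cd79a (-1.64 to 4.41) and Ighm (-0.09489 to 0.155); in cNK by genotype of Jchain (-0.94 to 0.18); in WT by cell type of Pax5 (-1.10 to 1.89); in CD8KO by cell type of Pax5 (-9.31 to 4.04) and Cd79a (-1.74 to 4.29); and for the interaction of Pax5 (-10.76 to 4.11), Cd79a (-2.38 to 3.65) and Igha (-1.31 to 3.75). Pax5 in WT by cell type was -2.45 with voom and -0.45 with the block, and Cd79a was -0.25 with voom.

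The sum of B-cell genes without immunoglobulin genes was 234, 134, 163 and 165 CPM in LrNK CD8KO, LrNK WT, cNK CD8KO and cNK WT; without Ighm it was 342, 159, 171 and 171 CPM; and without immunoglobulin and Cd72, a choice made after seeing the data, 167, 46.0, 42.1 and 33.5 CPM. The sum of all 27 B-cell genes was 357 CPM in LrNK WT within libraries with many detected genes, and 374 CPM in cNK CD8KO with TMM scaling. Plasma-cell sums without immunoglobulin were 36.8 CPM in LrNK CD8KO and 1.94 CPM in cNK CD8KO, and without Igha 57.8 and 2.23 CPM. Leaving out 1 sample, B-cell sums averaged 507 to 754, 410 to 493, 381 to 388 and 335 to 350 CPM, and plasma-cell sums 208 to 263, 12.96 to 77.3, 2.49 to 2.65 and 1.81 to 2.77 CPM, in the 4 groups in the same order.

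Limits were set by 2 LrNK CD8KO samples, by the 3 LrNK libraries with few detected genes, in which low genes were often at 0, and by counts that are not given by strand.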
